A study of Homo sapiens with 16 samples.

Results

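The ERBB receptors and the EGF ligands that bind them were followed as messenger RNA through 8 groups of hepatocellular carcinoma cells. The set was fixed by name as 10 genes, the 4 receptors EGFR, ERBB2, ERBB3 and ERBB4 and the 6 ligands EGF, AREG, EREG, HBEGF, TGFA and BTC. All 10 were found by Entrez gene identifier among the 26258 genes of the deposited expression table. The study derived lines resistant to Sorafenib, an oral multi-kinase inhibitor, from Huh7 and Hep3B, which are established human hepatocellular carcinoma lines. The IR lines were raised under increasing concentrations of the drug and the CR lines under a constantly high one, and both are labelled as kept in 7 µM Sorafenib. Parental and DMSO cells are labelled untreated, and the sources used here describe the DMSO cells no further. Each of the 8 groups (parental, DMSO, IR and CR, in each line) had 2 libraries. Whether an IR or CR line is 1 clone is not given in the sources used here, and the presence of the drug and the resistant state cannot be told apart.

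EGFR, ERBB2, ERBB3 and ERBB4 are receptor tyrosine kinases that pair with one another when a ligand binds, and they signal through the RAS, PI3-kinase and STAT routes. ERBB2 has no known ligand and serves as a partner, while ERBB3 has a weak kinase and passes its signal through its partner. The EGF ligands are made as membrane precursors that proteases of the ADAM family release, and EGFR and its ligands are known in the liver for their part in regeneration after injury.

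Levels are given in CPM, reads of a gene scaled to the total of reads assigned to genes in that library. Levels of different genes are set side by side per kilobase (kb) of exon, except where EREG and AREG are compared over libraries in CPM. A difference between groups is a log2 difference of CPM + 1, which understates the change of genes near or under 1 CPM. It comes from limma with 1 fit over the 8 groups and p-values adjusted over 15019 genes, those that reached 1 CPM in 2 or more libraries. A gene passed the test, and is written to have risen or fallen, at an adjusted p below 0.05 together with a log2 difference of at least 0.58 in size. All 10 genes entered the fit, but EGF did so only through the 6 DMSO, IR and CR libraries of Huh7, and TGFA only through both Hep3B-CR libraries. Differences of these genes that involve those groups are therefore descriptions, and the adjusted p beside them, but for those against DMSO cells, is that of a fit with no filter on low levels, where each of their 7 calls was kept.

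Sequencing depth was 46613302 to 76860251 reads per library. Replicates lay farthest apart in Huh7-IR and Huh7-DMSO, where the SD of the log2 difference between both libraries over genes was 0.566 and 0.571, against 0.236 to 0.310 elsewhere. Within Huh7-IR the ratio between replicates reached 6.69 for ERBB3, 5.29 for AREG and 3.22 for EREG, so the Huh7-IR differences from parental cells are also given without each IR library. Summed CPM of 10 hepatocyte markers was 10700 to 16300 in Huh7 parental libraries, 22700 to 27900 in Huh7-DMSO, 112 to 460 in Huh7-IR and 1370 to 2790 in Huh7-CR. The same sum was 17500 to 22000 in Hep3B parental libraries, 31900 to 38500 in Hep3B-DMSO, 3580 to 10400 in Hep3B-IR and 1320 to 2230 in Hep3B-CR. Against parental cells 9 and 8 of the 10 fell in the IR and CR cells of Huh7, and 4 and 7 in those of Hep3B, where 1 rose in IR. The sum over 7 fibroblast markers was 285 to 337 CPM in Huh7 parental, 316 to 340 in IR and 499 to 782 in CR libraries, and 27.8 to 37.1, 33.2 to 86.9 and 68.7 to 87.1 CPM in those of Hep3B. Of the 6 fibroblast markers with levels to test, 5 rose and 1 fell in Huh7-IR and in Huh7-CR alike, with a median log2 difference of 2.22 and 3.69, while 1 rose and 1 fell in Hep3B-IR and 1 rose in Hep3B-CR. The sum over 5 biliary markers ran from 251 to 980 CPM, and those over 5 endothelial and over 5 blood cell markers reached at most 6.36 and 7.03 CPM, with 3 of the 5 markers under 1 CPM everywhere in each list. Their part in the results was not tested. In bulk RNA, fewer cells of a type and less RNA per cell cannot be told apart.

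EREG, AREG and BTC lie near one another on chromosome 4, with 56.4 kb between the end of EREG (chr4:75230862-75254466, plus strand, GRCh37) and the start of AREG (chr4:75310853-75320722, plus strand). The AREG sequence matters for every AREG level below, since GRCh37 holds a near-identical copy, AREGB, at chr4:75480629-75490486. Of the 1234 exon bases of AREG, 1233 are identical in AREGB. The 1 difference is G240A, with AREG first and positions counted from 1 at the start of exon 1, and it falls in the coding part. It is in capitals in these 25 bases of the plus strand:
AREG (chr4:75311080-75311104): accgccggcgccGgtggtgctgtcg
AREGB (chr4:75480856-75480880): accgccggcgccAgtggtgctgtcg
Of the 1160 stretches of 75 bases in the spliced AREG transcript, 75 (6.47%) are not in that of AREGB, while 99.7 to 100.0% of the 75-base stretches inside exons of the other 9 genes occur once in the genome. The study kept reads with 1 genomic hit, so the level of AREG is understated against other genes. Which base Huh7 and Hep3B carry at this position was not examined, so AREG levels are compared between the lines with that limit. AREGB was not found by symbol, and 26111 of 26258 identifiers had a symbol. Whether the table holds it under an identifier without a symbol was not examined.

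The promoters of EREG and AREG, whose levels followed each other over the libraries, and of HBEGF, which rose in all 4 resistant lines, are shown because the results turn on these ligands. Each is the 250 bases before the RefSeq start (GRCh38.p14), 5′ to 3′ on the strand of the gene. Capitals mark the CRE (TGACGTCA) and its shorter core (TGACG), which overlap, the TATA box (TATAAA) and the GC box (GGGCGG), each searched on both strands.
EREG (chr4:74364895-74365144, plus strand): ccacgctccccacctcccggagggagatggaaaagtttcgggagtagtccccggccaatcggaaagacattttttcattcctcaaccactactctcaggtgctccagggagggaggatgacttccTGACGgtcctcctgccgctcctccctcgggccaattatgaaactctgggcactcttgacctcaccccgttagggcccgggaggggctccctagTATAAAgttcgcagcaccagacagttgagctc
AREG (chr4:74444886-74445135, plus strand): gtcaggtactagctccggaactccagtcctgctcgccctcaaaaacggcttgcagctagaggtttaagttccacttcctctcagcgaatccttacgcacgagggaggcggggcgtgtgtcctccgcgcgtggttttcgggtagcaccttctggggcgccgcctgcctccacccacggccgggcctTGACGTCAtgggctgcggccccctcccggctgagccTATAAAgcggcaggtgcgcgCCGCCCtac
HBEGF (chr5:140346604-140346853, minus strand): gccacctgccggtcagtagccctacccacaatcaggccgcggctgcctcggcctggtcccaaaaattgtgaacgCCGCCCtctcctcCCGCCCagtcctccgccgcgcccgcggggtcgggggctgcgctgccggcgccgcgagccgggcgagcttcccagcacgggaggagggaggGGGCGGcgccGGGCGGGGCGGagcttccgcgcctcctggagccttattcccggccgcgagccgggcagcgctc
AREG holds a CRE 65 bases before its start, which 1.65% of 35114 promoters of that length do, and a TATA box 29 bases before it, against 10.7% of promoters. EREG holds a TATA box 32 bases and a CRE core 125 bases before its start, against 21.2% of promoters for the core. HBEGF holds 5 GC boxes between 176 and 58 bases before its start and no TATA box in this window, and 42.6% of promoters hold a GC box. These matches are a description of letters and were not tied to binding in any file.

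Against parental cells, 3, 2, 2 and 4 of the 6 ligands passed the test in the IR and CR cells of Huh7 and then those of Hep3B, each of them higher in the resistant cells. Of the 4 receptors 2 and 1 fell in Huh7-IR and Huh7-CR, and 1 and 1 rose in Hep3B-IR and Hep3B-CR. Whether ligands passed more often than receptors was not tested. In Huh7-IR, 3 of the 10 genes rose and 2 fell, where 48.8% of all genes passed the test in either direction (31.1% higher and 17.8% lower). In Huh7-CR, 2 rose and 1 fell, where 34.5% of all genes passed (20.9% higher and 13.6% lower). In Hep3B-IR 3 rose, where 27.1% of all genes passed (15.7% higher and 11.4% lower). In Hep3B-CR 5 rose, where 32.2% of all genes passed (20.0% higher and 12.3% lower). In the fit of all groups with limma 0 members fell in either Hep3B comparison, and 0 fell with edgeR. ERBB4 fell in Hep3B-CR with DESeq2, at an unadjusted p below 0.05, after quantile normalization (-0.96, adjusted p = 0.0383), with the libraries of the line only (-0.75, adjusted p = 0.00607) and with only the groups compared (-0.75, adjusted p = 0.00988). The counts of 5, 3, 3 and 5 of 10 genes lay near these shares of all genes, and they hold EGF in both Huh7 comparisons and TGFA in Hep3B-CR, which entered the fit through those cells. The IR and CR comparisons of each line share their parental libraries. How many of all genes passed in the same direction in all 4 comparisons was not counted. The median log2 difference over the 10 genes was 0.30, 0.16, 0.57 and 0.81 in the IR and CR cells of Huh7 and those of Hep3B, beside 0.19, 0.07, 0.06 and 0.11 over all genes. With library scaling factors (TMM) the median of all genes in Huh7-IR moved by -0.19 to 0.00, so the Huh7-IR differences below stand relative to a centre above 0.

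**Figure D1:**
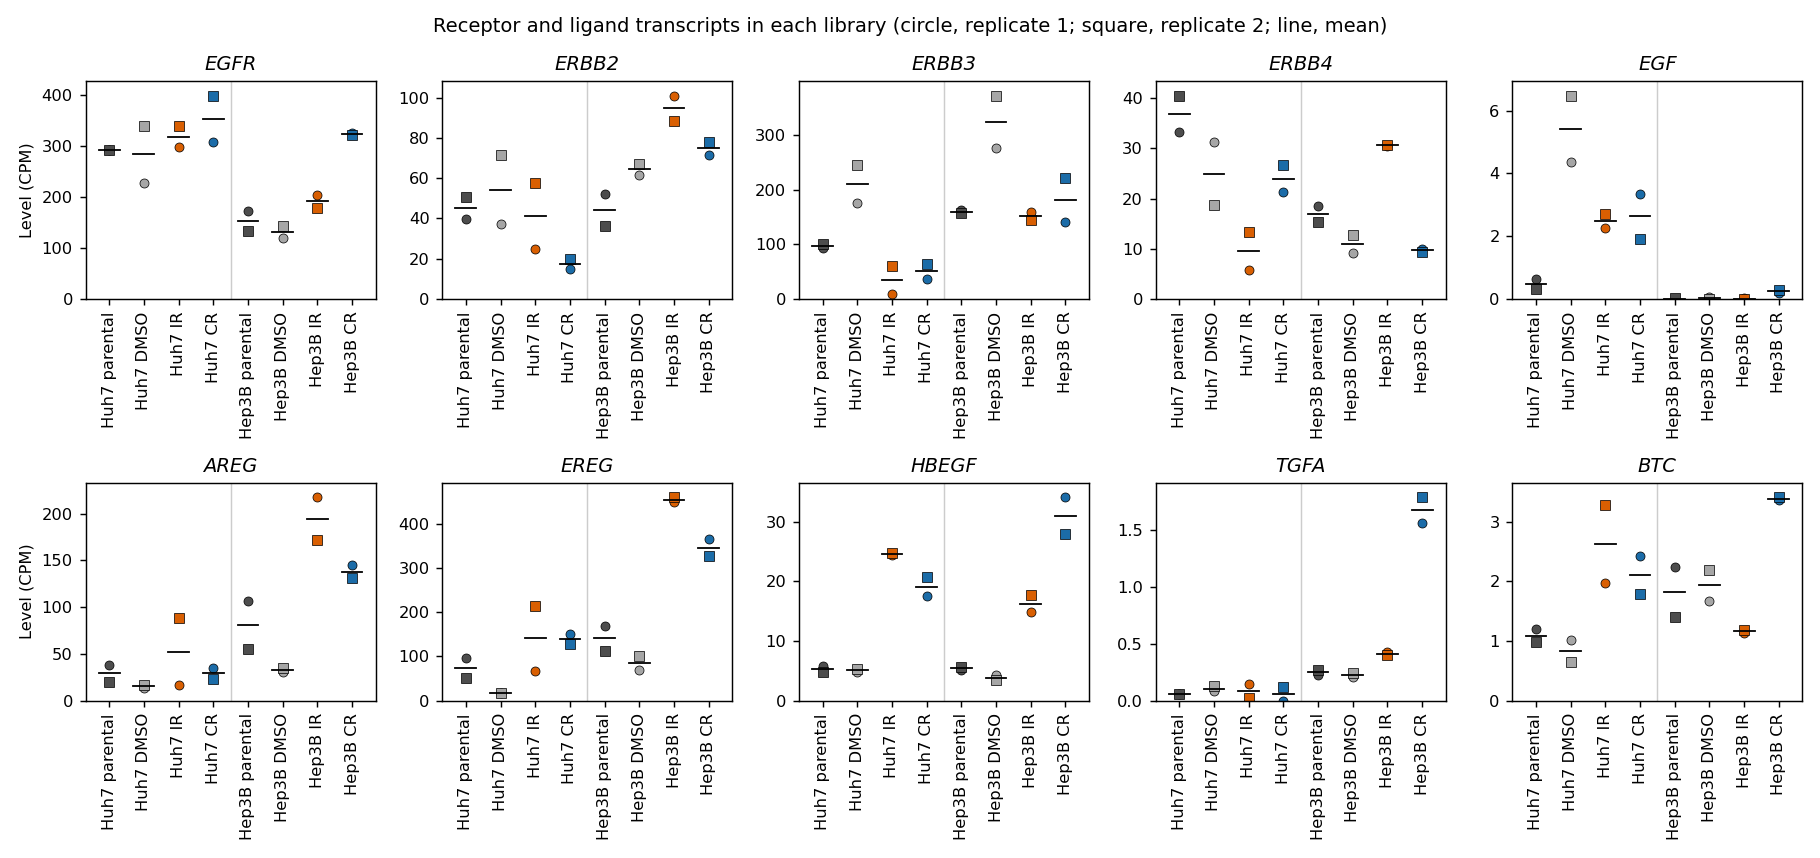
Level of each of the 10 genes in all 16 libraries, in CPM on a linear axis from 0 for each gene, with a circle for replicate 1, a square for replicate 2 and a line at the group mean. HBEGF of the 8 IR and CR libraries lies at 14.8 CPM or above and that of the 8 parental and DMSO libraries at 5.73 CPM or below.

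HBEGF, a heparin-binding ligand of EGFR and ERBB4, was the only one of the 10 genes that rose in all 4 comparisons with parental cells. Its CPM in Huh7 was 5.73 and 4.81 in parental cells, 4.72 and 5.37 in DMSO cells, 24.4 and 24.7 in IR cells and 17.5 and 20.6 in CR cells. In Hep3B it was 5.18 and 5.70 in parental cells, 4.25 and 3.45 in DMSO cells, 14.8 and 17.7 in IR cells and 34.1 and 27.8 in CR cells. Every resistant library lay above every parental and DMSO library, in both lines. The rise was 2.03 ± 0.18 on the log2 scale (SE, n = 2 against 2, 4.08-fold, adjusted p = 2.8e-06) in Huh7-IR and 1.68 ± 0.18 (3.2-fold, adjusted p = 2.08e-05) in Huh7-CR. In Hep3B-IR it was 1.42 ± 0.18 (2.67-fold, adjusted p = 0.000124), and in Hep3B-CR 2.31 ± 0.18 (4.94-fold, adjusted p = 3.17e-06). Without IR replicate 1 or 2 the Huh7-IR rise was 2.04 and 2.02. These 4 rises passed the test under each of the 17 alternatives run for each, with values of 1.61 to 2.17, 1.32 to 1.81, 1.10 to 1.83 and 1.88 to 2.72 in the same order. The mean change of the IR and CR cells did not differ detectably between lines, with a difference of -0.01 (95% interval -0.49 to 0.48). Per kb of exon, HBEGF went from 2.24 to 10.4 CPM in Huh7-IR and from 2.31 to 13.1 CPM in Hep3B-CR.

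EREG, or epiregulin, which binds EGFR and ERBB4, was the most abundant ligand per kb where AREG is set aside, at 51.7 to 93.5% of the summed level of the other 5 ligands in each library. In Hep3B its CPM was 170 and 113 in parental cells, 68.3 and 102 in DMSO cells, 451 and 461 in IR cells and 366 and 327 in CR cells. All 4 resistant libraries were above all 4 others. EREG rose by 1.71 ± 0.43 in Hep3B-IR (3.28-fold, adjusted p = 0.00956) and by 1.32 ± 0.43 in Hep3B-CR (2.49-fold, adjusted p = 0.0298). Without parental replicate 2 these became 1.42 (adjusted p = 0.0909) and 1.03 (adjusted p = 0.193), and the Hep3B-CR call was also lost without CR replicate 1 (adjusted p = 0.125) and without CR replicate 2 (adjusted p = 0.0861). In Huh7 the CPM of EREG was 97.4 and 52.0 in parental cells, 17.3 and 17.7 in DMSO cells, 66.8 and 215 in IR cells and 150 and 129 in CR cells. Both CR libraries were above both parental ones, while those of IR lay on either side of parental replicate 1. Neither passed the test, at 0.75 (95% interval -0.19 to 1.68) in Huh7-IR and 0.96 (0.02 to 1.90, adjusted p = 0.0958) in Huh7-CR. The Huh7-IR value was 1.58 (adjusted p = 0.00257) without IR replicate 1 and -0.09 without IR replicate 2. The DMSO cells of Huh7 were the lowest group, and against them EREG was higher by 2.71 in Huh7-IR (adjusted p = 0.000231) and by 2.92 in Huh7-CR (adjusted p = 0.000202).

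AREG, or amphiregulin, a ligand of EGFR, had its highest levels in the same Hep3B cells but passed no test against parental cells. In Hep3B its CPM was 107 and 54.7 in parental cells, 31.1 and 34.4 in DMSO cells, 217 and 171 in IR cells and 145 and 131 in CR cells. The resistant libraries were again above all others. The log2 difference was 1.33 ± 0.58 in Hep3B-IR (adjusted p = 0.100, 95% interval 0.07 to 2.58) and 0.84 (-0.41 to 2.09, adjusted p = 0.271) in Hep3B-CR. Fitted on the Hep3B libraries alone, which leaves the wide spread of Huh7-IR out of the error, the adjusted p was 0.00307 and 0.0224, and against DMSO cells in the fit of all groups AREG was higher by 2.53 (adjusted p = 0.00441) and 2.04 (adjusted p = 0.0139). In Huh7 its CPM was 38.2 and 19.7 in parental cells, 13.6 and 16.5 in DMSO cells, 16.6 and 88.1 in IR cells and 35.3 and 23.0 in CR cells. The Huh7-IR libraries enclosed all others of the line but both DMSO libraries, and the log2 difference of 0.48 (-0.78 to 1.73) was 1.64 (adjusted p = 0.00647) without IR replicate 1 and -0.69 without IR replicate 2. EREG and AREG followed each other over the 16 libraries with a Pearson correlation of 0.909 on the log2 scale, a description over libraries that share lines, groups and scaling. The ratio of EREG CPM to AREG CPM, which takes no account of exon length, serves only to compare libraries. It ran from 1.07 in Huh7-DMSO replicate 2 to 5.61 in Huh7-CR replicate 2, and within Hep3B from 1.59 to 2.95. Per kb of exon AREG, although understated, was higher than EREG in every library but Huh7-IR replicate 1 and both Huh7-CR libraries.

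**Figure D2:**
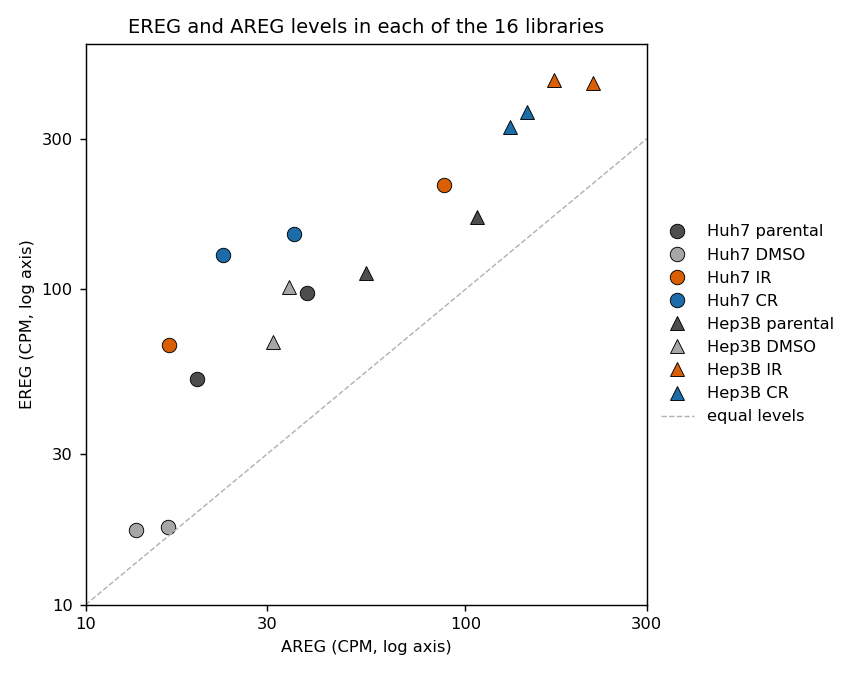
CPM of EREG against CPM of AREG in the 16 libraries, both on log axes, with circles for Huh7, triangles for Hep3B and colours for the groups. The dashed line marks equal CPM, which is not corrected for exon length (4.615 kb for EREG and 1.234 kb for AREG). The 4 resistant Hep3B libraries lie at the upper right, with AREG from 131 to 217 CPM and EREG from 327 to 461 CPM, and the Huh7-IR libraries lie far apart, with AREG at 16.6 and 88.1 CPM.

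EGF itself, the founding ligand of the family, was close to the detection limit in Hep3B and low in Huh7. In Huh7 its CPM was 0.640 and 0.308 in parental cells (44 and 23 reads), 4.37 and 6.48 in DMSO cells (317 and 451 reads), 2.25 and 2.70 in IR cells and 3.35 and 1.90 in CR cells. The untreated DMSO cells were the highest and the untreated parental cells the lowest, with the resistant cells between them and no overlap with either. EGF therefore rose against parental cells, by 1.25 ± 0.21 in Huh7-IR (adjusted p = 0.000765) and 1.28 ± 0.21 in Huh7-CR (adjusted p = 0.00114), and was lower than in DMSO cells, by -0.87 (adjusted p = 0.00384) and -0.84 (adjusted p = 0.00689). Without IR replicate 1 or 2 the Huh7-IR rise was 1.34 and 1.15. With a pseudocount of 4 CPM the rises fell below the size limit, at 0.53 and 0.56. In Hep3B parental, DMSO and IR libraries 0 to 4 reads were counted, where 3 reads are worth 0.039 to 0.043 CPM, and both Hep3B-CR libraries had 14 and 15 reads. The Hep3B-CR difference of 0.29 on this scale (95% interval -0.16 to 0.75) did not pass the test, while counts tested with edgeR and DESeq2 gave an adjusted p of 0.00622 and 0.00491.

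TGFA, a ligand of EGFR, had at most 32 reads in any library outside Hep3B-CR. In Hep3B its CPM was 0.229 and 0.267 in parental cells, 0.208 and 0.247 in DMSO cells, 0.428 and 0.398 in IR cells and 1.56 and 1.79 in CR cells, the last from 118 and 94 reads. The 3 levels (parental with DMSO, IR, CR) did not overlap. TGFA was higher by 1.10 ± 0.12 in Hep3B-CR (adjusted p = 5.99e-06), the group through which it entered the fit, and the difference became 0.42 and fell below the size limit with a pseudocount of 4 CPM, and it differed by 0.18 (95% interval -0.08 to 0.44) in Hep3B-IR. All 8 Huh7 libraries had 0 to 9 reads of TGFA, at most 0.149 CPM, and the ranges of the IR and CR libraries enclosed the parental ones.

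BTC, or betacellulin, which binds EGFR and ERBB4, lay between 0.646 and 3.41 CPM in the 16 libraries. In Huh7 its CPM was 1.19 and 0.978 in parental cells, 1.02 and 0.646 in DMSO cells, 1.97 and 3.28 in IR cells and 2.43 and 1.78 in CR cells. In Hep3B it was 2.23 and 1.39 in parental cells, 1.67 and 2.19 in DMSO cells, 1.14 and 1.18 in IR cells and 3.36 and 3.41 in CR cells. The 4 resistant Huh7 libraries were above the 4 others, and in Hep3B the IR libraries were the lowest and the CR libraries the highest. BTC rose by 0.78 ± 0.22 in Huh7-IR (adjusted p = 0.00836) and by 0.66 ± 0.22 in Hep3B-CR (adjusted p = 0.0298), and differed by 0.57 (95% interval 0.10 to 1.04, adjusted p = 0.0519) in Huh7-CR and by -0.37 (-0.84 to 0.10) in Hep3B-IR. The Huh7-IR rise was 0.70 (adjusted p = 0.0581) without parental replicate 2, 0.51 (adjusted p = 0.0757) without IR replicate 2, 1.04 (adjusted p = 0.00299) without IR replicate 1 and 0.30 (adjusted p = 0.296) after quantile normalization. The Hep3B-CR call was lost in 8 alternatives, among them without parental replicate 2 (0.44, adjusted p = 0.238), without CR replicate 1 (adjusted p = 0.0993) and without CR replicate 2 (adjusted p = 0.106), and after quantile normalization it was 0.33.

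EGFR, the receptor of all 6 ligands, was the most abundant receptor per kb in every Huh7 group but DMSO, at 29.5 CPM per kb in parental cells. In Huh7 its CPM was 292.5 and 292.7 in parental cells, 228 and 340 in DMSO cells, 298 and 340 in IR cells and 309 and 400 in CR cells. The 4 resistant libraries lay above the parental ones and overlapped the DMSO ones, with a log2 difference of 0.12 (95% interval -0.31 to 0.55) in Huh7-IR, which was 0.22 and 0.03 without IR replicate 1 or 2, and 0.26 (-0.16 to 0.69) in Huh7-CR. In Hep3B the CPM of EGFR was 173 and 134 in parental cells, 121 and 144 in DMSO cells, 204 and 179 in IR cells and 326 and 322 in CR cells. Only the CR group, with both libraries near the level of Huh7, passed the test. EGFR rose there by 1.09 ± 0.20 (2.13-fold, adjusted p = 0.00107), a call kept under each alternative run with values from 0.90 to 1.29, while Hep3B-IR differed by 0.33 (-0.10 to 0.76).

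EGFR-AS1, a non-coding transcript antisense to EGFR, was picked after its values were seen. While EGFR rose against parental cells only in Hep3B-CR, EGFR-AS1 was lower in the resistant libraries of both lines. Its CPM in Huh7 was 5.38 and 3.75 in parental cells, 7.05 and 5.03 in DMSO cells, 0.15 and 0.54 in IR cells and 2.40 and 3.53 in CR cells. In Hep3B it was 19.2 and 17.1 in parental cells, 18.6 and 23.5 in DMSO cells, 3.61 and 6.71 in IR cells and 4.38 and 8.36 in CR cells. All 8 resistant libraries were below the untreated ones of their line. The fall was -2.05 in Huh7-IR (adjusted p = 0.000193), -1.68 in Hep3B-IR (adjusted p = 0.00185) and -1.43 in Hep3B-CR (adjusted p = 0.00429), and the Huh7-CR difference of -0.49 did not pass. It shares 186 exon bases with EGFR on the other strand, and whether the counting used strand is not given in the sources used here, so reads there cannot be told apart.

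ERBB2, the receptor without a ligand of its own, moved in opposite directions in the lines. In Huh7 its CPM was 39.7 and 50.4 in parental cells, 37.0 and 71.6 in DMSO cells, 24.7 and 57.4 in IR cells and 15.1 and 19.9 in CR cells. Both CR libraries were the lowest of the line, and those of IR enclosed the parental ones. In Hep3B it was 52.0 and 36.2 in parental cells, 61.6 and 67.2 in DMSO cells, 101 and 88.5 in IR cells and 71.3 and 78.2 in CR cells, so that all 4 resistant libraries lay above the 4 others. ERBB2 fell in Huh7-CR (-1.32 ± 0.36, adjusted p = 0.011) and rose by 1.11 ± 0.36 in Hep3B-IR (2.15-fold, adjusted p = 0.0327). It differed by -0.24 (95% interval -1.02 to 0.54) in Huh7-IR, which was 0.35 without IR replicate 1 and -0.83 (adjusted p = 0.0528) without IR replicate 2, and by 0.77 (-0.01 to 1.55) in Hep3B-CR. The Huh7-CR call was lost without parental replicate 2 (-1.15, adjusted p = 0.0812) and without CR replicate 1 (-1.13, adjusted p = 0.087). The Hep3B-IR call was lost without parental replicate 2 (0.85, adjusted p = 0.223), IR replicate 1 (1.01, adjusted p = 0.154) or IR replicate 2 (1.20, adjusted p = 0.0819), and against DMSO cells the difference was 0.55 (adjusted p = 0.252).

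ERBB3, the receptor with the weak kinase, was lower in the resistant Huh7 cells than in both untreated groups of that line. Its CPM in Huh7 was 92.7 and 101 in parental cells, 176 and 246 in DMSO cells, 9.0 and 60.2 in IR cells and 36.9 and 63.7 in CR cells. All 4 resistant libraries lay below the untreated ones, and those of IR differed from each other most. ERBB3 fell in Huh7-IR (-1.98 ± 0.59, adjusted p = 0.0125), a value that was -0.68 (adjusted p = 0.109) without IR replicate 1, -3.29 (adjusted p = 1.32e-05) without IR replicate 2 and -1.92 (adjusted p = 0.0603) without parental replicate 2. The Huh7-CR difference was -0.98 (95% interval -2.27 to 0.31). Against DMSO cells the differences were -3.08 (adjusted p = 0.000875) and -2.08 (adjusted p = 0.0139). In Hep3B its CPM was 162 and 157 in parental cells, 278 and 373 in DMSO cells, 160 and 145 in IR cells and 141 and 222 in CR cells. The DMSO libraries were the highest, and the resistant ones stood around the parental level, with differences of -0.07 (-1.36 to 1.22) and 0.15 (-1.14 to 1.44).

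ERBB4, which binds neuregulins as well as some of the EGF ligands, fell in Huh7-IR and was higher in IR than in CR cells of Hep3B. In Huh7 its CPM was 33.2 and 40.6 in parental cells, 31.2 and 18.7 in DMSO cells, 5.74 and 13.4 in IR cells and 21.3 and 26.7 in CR cells. The IR libraries were the lowest. ERBB4 fell in Huh7-IR (-1.94 ± 0.32, adjusted p = 0.000294), a call kept under each alternative run, at -1.39 without IR replicate 1 and -2.49 without IR replicate 2, and differed by -0.60 (95% interval -1.30 to 0.10) in Huh7-CR. In Hep3B its CPM was 18.6 and 15.4 in parental cells, 9.22 and 12.8 in DMSO cells, 30.4 and 30.8 in IR cells and 9.90 and 9.44 in CR cells. Both IR libraries lay above and both CR libraries below the parental ones, with differences of 0.82 (0.12 to 1.52, adjusted p = 0.0716) and -0.75 (-1.45 to -0.05, adjusted p = 0.0851), neither of which passed the test.

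Per kb of exon, the receptors made up different shares of their summed level in the groups. EGFR held 47.7 to 51.4% of it in Huh7 parental libraries, 35.4 to 36.0% in DMSO, 58.4 to 80.1% in IR and 69.2 to 72.8% in CR libraries. ERBB3 held 28.7 to 29.1%, 45.9 to 48.2%, 4.27 to 18.2% and 15.3 to 19.5% in the same order. In Huh7 the share of EGFR was thus above, and that of ERBB3 below, both untreated groups in all 4 resistant libraries. In Hep3B the share of ERBB3 was 48.8 to 55.2% in parental, 65.1 to 68.7% in DMSO, 38.6 to 39.3% in IR and 33.8 to 44% in CR libraries. It thus lay below both untreated groups in all 4 resistant libraries of Hep3B too. EGFR held 26.6 to 29.4%, 15 to 16%, 27.4 to 27.9% and 36.1 to 44.1% there, so that only the CR libraries lay above the parental range. These shares were not tested.

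**Figure D3:**
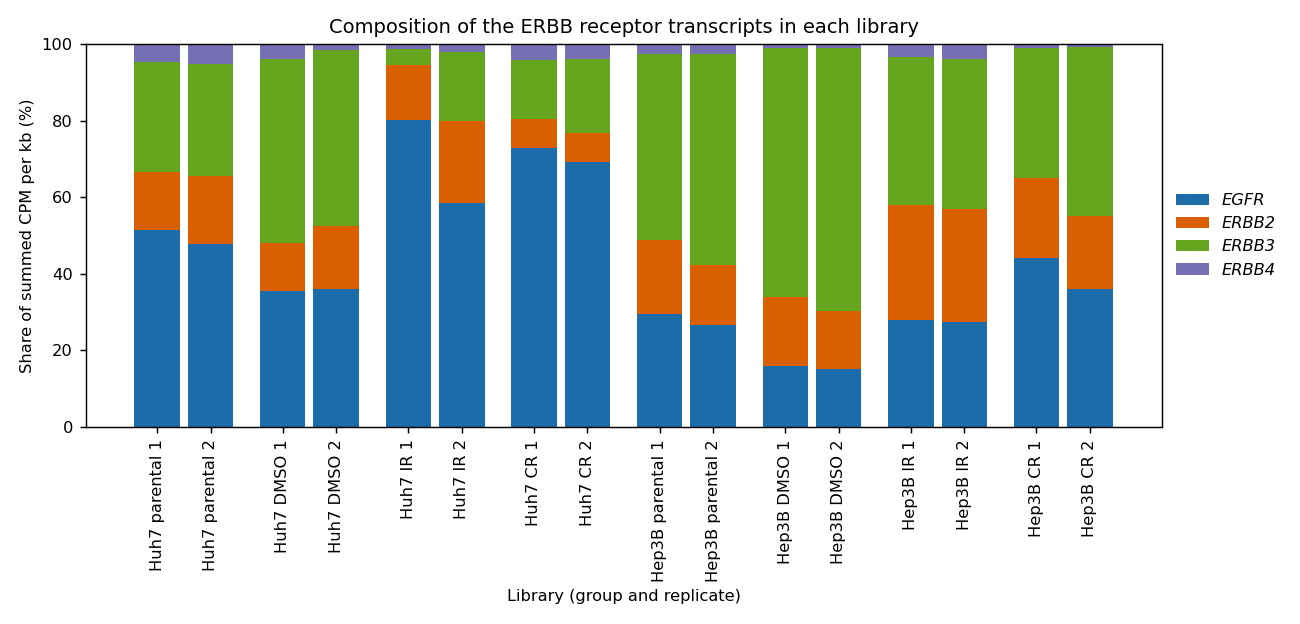
Share of each ERBB receptor in the summed receptor level (percent, from CPM per kb of exon), 1 stacked bar per library. EGFR takes 58.4 to 80.1% in the resistant Huh7 libraries, and the share of ERBB3 is largest in the DMSO libraries of both lines.

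The change of the mean of IR and CR cells against parental cells was then compared between the lines, where 29.4% of all genes passed the test (16.3% higher and 13.1% lower in Huh7). It differed for ERBB2, by -1.72 (Huh7 minus Hep3B, SE 0.44, adjusted p = 0.0108), for ERBB4, by -1.31 (SE 0.39, adjusted p = 0.0245), for TGFA, by -0.62 (SE 0.15, adjusted p = 0.000617), and for EGF, by 1.115 (SE 0.26, adjusted p = 0.0101). The ERBB2 difference was not called without Huh7 parental replicate 2 (-1.55, adjusted p = 0.0557) or Hep3B parental replicate 2 (-1.46, adjusted p = 0.0605). That of ERBB4 was not called in 5 of 24 alternatives, without Huh7 parental replicate 2 (-1.17, adjusted p = 0.103), Huh7-CR replicate 1 (-1.23, adjusted p = 0.0521), Hep3B parental replicate 1 (-1.43, adjusted p = 0.0529) or Hep3B parental replicate 2 (-1.18, adjusted p = 0.0959) and with no filter on low levels (adjusted p = 0.0505). For ERBB4 the Hep3B mean joined differences of opposite sign, 0.82 in IR and -0.75 in CR cells, and describes neither. The line differences of EGF and TGFA were not called on recovered reads with edgeR (adjusted p = 0.976 and 0.376). For ERBB3 it was -1.52 (95% interval -3.10 to 0.05), for EGFR -0.52 (-1.04 to 0.01), for AREG -0.82 (-2.35 to 0.71), for EREG -0.66 (-1.81 to 0.49) and for BTC 0.53 (-0.05 to 1.10).

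**Figure D4:**
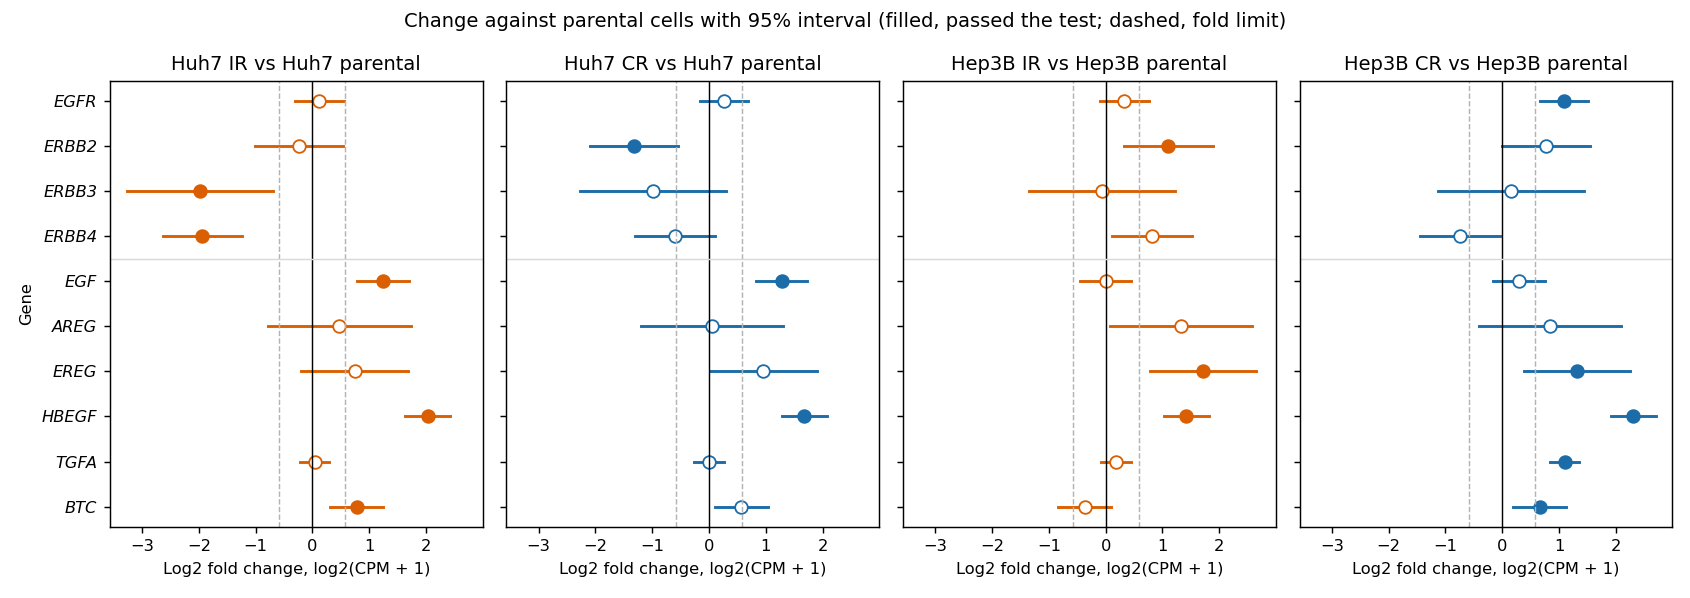
Log2 difference of CPM + 1 of each gene against parental cells in 1 panel per resistant line, with 95% intervals as bars, filled points for those that passed the test and dashed lines at the size limit of 0.58. HBEGF lies at 1.42 to 2.31 in the 4 comparisons, and ERBB2 lies at -1.32 in Huh7-CR and at 1.11 in Hep3B-IR.

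Between the resistant lines of Hep3B, 5 of the 10 genes differed, where 11.7% of all genes did (5.33% higher and 6.41% lower in IR). The 5 include TGFA, which entered the fit only through Hep3B-CR, the side where it is high, so its difference is a description. With a filter at 5 CPM or a pseudocount of 4 CPM the number was 3. EGFR (-0.76, adjusted p = 0.0253), HBEGF (-0.89, adjusted p = 0.00777), TGFA (-0.92, adjusted p = 4.63e-05) and BTC (-1.02, adjusted p = 0.0092) were lower in IR than in CR cells, and ERBB4 was higher, by 1.57 (adjusted p = 0.008). Each of these calls but that of TGFA, which was lost with edgeR (adjusted p = 0.0759) and DESeq2 (0.103), was lost on leaving out at least 1 library, with adjusted p from 0.0603 to 0.170 for EGFR in all 4 such fits, 0.0649 for HBEGF without IR replicate 1 and 0.073 without CR replicate 1. That of ERBB4 was lost without replicate 2 of IR (adjusted p = 0.0602) or of CR (0.059), and that of BTC without IR replicate 2 (0.061), CR replicate 1 (0.0521) or CR replicate 2 (0.0603). Between Huh7-IR and Huh7-CR, where 13.7% of all genes differed (8.23% higher and 5.43% lower in IR), only ERBB4 passed, lower in IR by -1.34 (adjusted p = 0.0183). It was lost without IR replicate 1 (-0.79, adjusted p = 0.0964), CR replicate 1 (adjusted p = 0.0557) or CR replicate 2 (adjusted p = 0.130). HBEGF differed there by 0.35 (95% interval -0.04 to 0.75).

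The untreated groups of a line also differed in some of these genes. Against Huh7 parental cells the DMSO cells were higher in EGF, by 2.11 (adjusted p = 0.000916), and lower in EREG, by -1.97 (adjusted p = 0.0272), where 4.83% of all genes passed (3.46% higher and 1.37% lower). The EREG call was lost without parental replicate 1 (-1.52, adjusted p = 0.178) or DMSO replicate 2 (-1.98, adjusted p = 0.158). In Hep3B 0 of the 10 genes passed with limma in the fit of all groups, where 1.58% of all genes did, and 0 passed at an unadjusted p below 0.05, with edgeR or with DESeq2. The largest differences there were -1.20 for AREG (adjusted p = 0.344) and 1.01 for ERBB3 (adjusted p = 0.44), and both passed when the Hep3B libraries were fitted alone (adjusted p = 0.0289 and 0.0242). Between parental lines, where 42.6% of all genes passed (18.9% higher and 23.7% lower in Huh7), EGFR was higher in Huh7 by 0.94 (adjusted p = 0.00165) and ERBB4 by 1.07 (adjusted p = 0.0146), the latter not called without Huh7 parental replicate 2 (0.93, adjusted p = 0.0913) or Hep3B parental replicate 2 (0.95, adjusted p = 0.0885). The difference of AREG was -1.44 (adjusted p = 0.0538) and that of EREG -0.95 (adjusted p = 0.0864).

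Genes around the receptors were read from 5 lists, with values against parental cells given for IR and CR of Huh7 first and then for IR and CR of Hep3B. In that order 31.1, 20.9, 15.7 and 20.0% of all genes rose and 17.8, 13.6, 11.4 and 12.3% fell. Of the 5 other ligands of the family, NRG1 and NRG3, neuregulins that bind ERBB3 and ERBB4 or ERBB4 alone, had levels to test. NRG3 was higher in all 4, by 1.32, 1.86, 2.20 and 1.43, from 0.687 CPM in Huh7 and 0.545 CPM in Hep3B parental cells. Outside the IR and CR libraries it reached 1 CPM in only 1 library, of Hep3B-DMSO (1.343 CPM). It thus entered the fit through the resistant cells, and these differences are descriptions. Its calls were kept in each of 17 alternatives, among them the fit with no filter on low levels. NRG1 rose by 0.95 in Huh7-CR and by 1.15 and 1.19 in both resistant Hep3B lines. Of 7 tested genes of ligand release, 4, 2, 1 and 4 rose and 1, 0, 2 and 1 fell. RHBDF2, an inactive rhomboid protein that carries the protease ADAM17 to the cell surface, rose by 1.47, 0.81 and 1.26 in Huh7-IR, Huh7-CR and Hep3B-CR, and lay at 0.17 in Hep3B-IR; its Huh7-CR call was kept in 8 of 17 alternatives. TIMP3, an inhibitor of ADAM17, rose by 0.99, 1.58 and 1.18 in the same comparisons and fell in Hep3B-IR (-2.31), while against DMSO cells its Hep3B-CR difference was -0.71. The median of the list stood at 0.87, 0.50, 0.08 and 0.75, beside 0.19, 0.07, 0.06 and 0.11 over all genes. Its counts and median include the inhibitor TIMP3, so they give no direction of ligand release.

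Genes listed for restraint of the receptors and genes that move the receptors through endosomes were read against the same shares of all genes, 31.1, 20.9, 15.7 and 20.0% higher. Of 13 genes of restraint, 7, 4, 4 and 5 rose and 0, 0, 2 and 2 fell, with medians of 0.84, 0.42, 0.29 and 0.34. LRIG2, a membrane protein, rose by 1.42, 1.04, 0.67 and 0.73, and RNF41, a ubiquitin ligase known to act on ERBB3, rose by 1.33, 0.98, 0.84 and 1.30. LRIG1 of the same family as LRIG2 fell (-1.06 and -0.86) in Hep3B-IR and Hep3B-CR, where UBASH3B, listed as a phosphatase, rose by 2.15 and 1.20. In which direction LRIG2 and UBASH3B act on the receptors was not examined, so their rises are not read as restraint. The counts and medians of the list include both, so they give no direction of restraint. Of 13 trafficking genes, 8, 5, 3 and 5 rose and 0, 0, 0 and 1 fell, with medians of 0.65, 0.37, 0.30 and 0.37, and the 3 of 13 in Hep3B-IR lay near the share of all genes. STAM (1.40, 1.28, 0.68 and 0.71) and STAM2 (1.32, 0.94, 0.78 and 1.05), which sort ubiquitinated receptors on endosomes, and SH3KBP1 (1.06, 1.73, 1.40 and 2.13), an adaptor of CBL in receptor uptake, rose in all 4. The share of all genes that rose in all 4 was not counted, so a rise in all 4 is not read as particular to these lists.

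Of 21 adaptors and effectors, 8, 4, 2 and 0 rose and 4, 2, 3 and 1 fell, with medians of 0.18, 0.01, 0.02 and -0.03. Over all genes 31.1, 20.9, 15.7 and 20.0% rose and 17.8, 13.6, 11.4 and 12.3% fell, and the counts lay near or below these shares. PIK3R3, a regulatory subunit of PI3-kinase, was the one gene of the list that fell in all 4 (-0.61, -0.68, -1.29 and -2.33), with the Huh7 calls kept in 11 and 13 of 17 alternatives. The share of all genes that fell in all 4 was not counted. VAV3, an exchange factor for small GTPases, fell from 3.0 ± 1.20 CPM (SD, n = 2) in Huh7 parental cells to 0 reads in both Huh7-IR libraries and to 2 and 4 reads in those of Huh7-CR, and it rose by 1.62 in Hep3B-IR. STAT5A, a transcription factor, rose by 1.79 and 0.93 in Huh7-IR and Huh7-CR. The receptors and ligands thus changed in cells where between 27.1 and 48.8% of all genes did, and these lists were described by counts and medians with no test of the list.

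**Figure D5:**
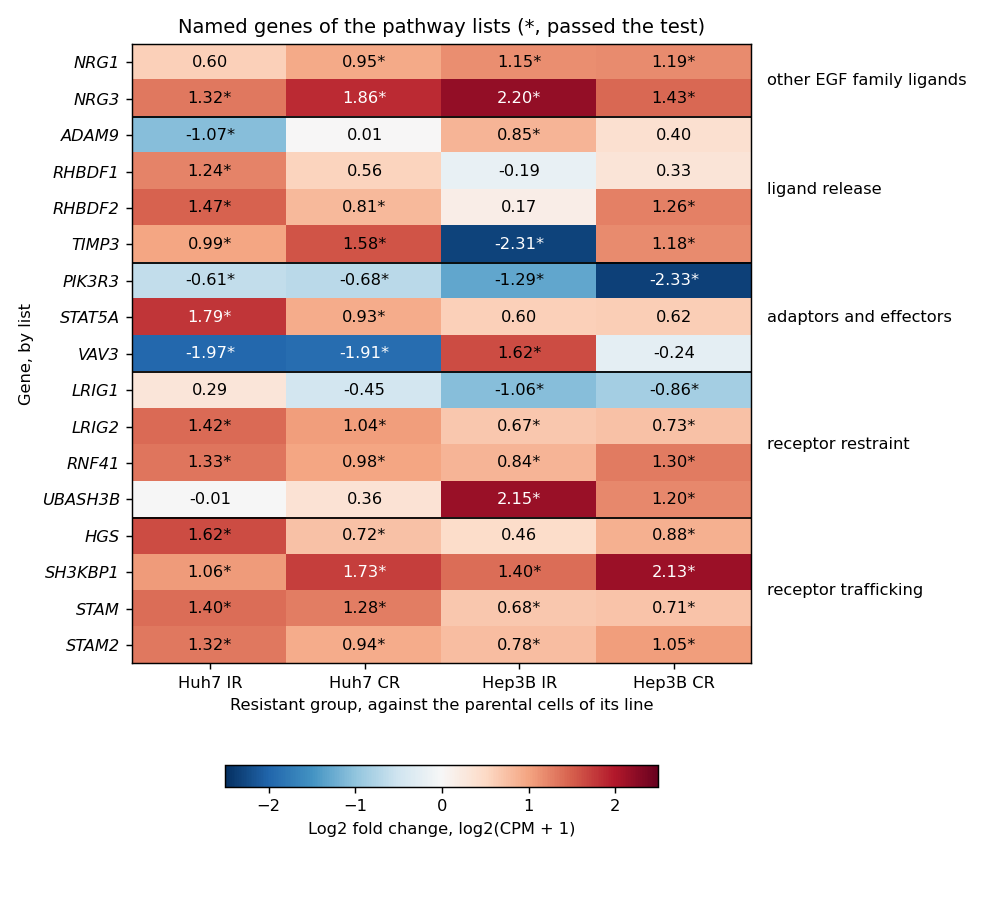
Log2 difference of CPM + 1 against parental cells for the named genes of the pathway lists, 1 row per gene and 1 column per comparison, on a colour scale centred at 0, with the value in each cell and a star where the test was passed. NRG3, LRIG2, RNF41, STAM, STAM2 and SH3KBP1 are above 0 in the 4 columns, and PIK3R3 is below 0 in the 4. NRG3 entered the fit through the resistant libraries.

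Over the 16 libraries, the genes whose log2 levels were most like those of each member were found by Pearson correlation among the genes tested, a description over libraries that share lines and groups. HBEGF was closest to SLC35F6 (0.972) and ANKRD42 (0.971), and EREG to PHLDA1 (0.962) and FARP2 (0.937). AREG was closest to BAAT (0.921) and PIH1D2 (0.915), rather than to EREG (0.909). EGFR was closest to GMPPA (0.948) and VASP (0.945), ERBB2 to LSR (0.892) and MYO7A (0.891), and ERBB3 to MCM5 (0.949) and SLC37A4 (0.936). For ERBB4 the second closest was GCNT4 (0.921), after a gene with no symbol in the reference table (0.942). EGF was closest to LINC02525 (0.958) and ECM2 (0.948), TGFA to THBS2 (0.979) and KCNQ1 (0.976), and BTC to URB1 (0.909) and RHBDF2 (0.875), the latter a gene of the ligand release list.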

How the data were processed

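RNA from 16 samples (8 groups of 2 libraries) had been sequenced by the study. Per the labels and the study's methods, the authors aligned reads to hg19 with STAR, kept unique hits, counted them over RefSeq exons and deposited 1 table of CPM (read counts scaled to the total of each library). Whether counting used strand is not given in the sources used here. The labels name 75-cycle poly(A) libraries, and the methods give another instrument, kit and number of replicates. The methods call the replicates biological but give more of them than the 2 labelled per group, and separate cultures are not stated, so p-values measure the spread between these libraries, which may be technical. Groups were taken from the sample titles.

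Reads were recovered from the CPM steps (100.0% of values whole within 0.05 reads), giving 46613302 to 76860251 reads per library and a limit of 3 reads for a count of 0; such limits cover counting error only. Symbols were found for 26111 of 26258 Entrez identifiers. The test was limma 3.58.1 (trend) on log2(CPM + 1) in R 4.3.3, over the 8 groups, on the 15019 genes that reached 1 CPM in 2 or more libraries, with Benjamini-Hochberg adjustment. The study's own test was edgeR on counts, so edgeR 4.0.16 and DESeq2 1.42.0 were run on recovered reads as alternatives, beside other scalings, pseudocounts, filters, sample sets, references and left-out libraries. The scripts were tested on simulated data, and tables were handled in Python 3.11.15 with pandas 2.3.3 and numpy 2.4.6. Exon lengths came from the GRCh37 canonical transcripts and promoters from RefSeq (ERBB3 is not in that table).

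Named were all 10 members, the genes of each pathway list called alike in all 4 comparisons with parental cells or, per comparison, the 2 with the largest difference, the 2 genes most like each member, and a gene that is not reported here. EGFR-AS1 was added after its values were seen. Members and lists were chosen with earlier results of these data known.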

Additional observations from a re-analysis of the deposited data

Results flagged for a closer look

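For 4 members the change of the mean of IR and CR cells against parental cells differed between the lines, by the contrast of both changes in the limma fit of all groups. Of all genes, 29.4% passed the test in the same contrast (16.3% higher and 13.1% lower in Huh7). Whether members passed it more often than other genes was not tested. The value for each member is Huh7 minus Hep3B on the log2 scale. It was -1.716 for ERBB2, which was lower in both Huh7-CR libraries and higher in all 4 resistant Hep3B libraries than in the parental ones. This difference was not called in 2 of 24 alternatives. It was -1.306 for ERBB4, the receptor that fell in Huh7-IR, and was not called in 5 of 24 alternatives. ERBB4 differed from parental cells by 0.82 in Hep3B-IR and by -0.75 in Hep3B-CR, so the Hep3B mean describes neither. The value was -0.62 for TGFA, which was higher in Hep3B-CR, the group through which it entered the fit, and had at most 9 reads in any Huh7 library. The TGFA difference was lost in 6 of 23 alternatives, among them edgeR. It was 1.115 for EGF, which was higher in both resistant Huh7 lines than in parental cells, entered the fit only through Huh7 libraries and had at most 15 reads in any Hep3B library. The EGF difference was lost in 2 of 23 alternatives, among them edgeR (adjusted p = 0.976). It changed sign in 2 more, with DESeq2 and with DMSO cells as reference (-0.972). The differences of EGF and TGFA are therefore descriptions.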

How the results depend on the processing

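Of 30 member differences that passed the test, 7 passed under each alternative run: HBEGF in its 4 comparisons with parental cells, ERBB4 in Huh7-IR, EGFR in Hep3B-CR and EGFR between parental lines. Over all 30, 437 recomputed values kept their call, 75 lost it and 4 turned, and the cause was not tested. Those that turned were EGF with DMSO cells as reference, at -0.868 in Huh7-IR, -0.835 in Huh7-CR and -0.972 for the line difference, which was -0.138 with DESeq2. Among 70 differences that did not pass, 64 of 1144 recomputed values passed and 56 changed sign, in 26 differences. Of 56 calls of list genes and EGFR-AS1, 38 passed throughout and 1 turned with DMSO as reference, TIMP3 at -0.712 in Hep3B-CR. UBASH3B, not called in Huh7-IR against parental cells, was at 1.384 there with DMSO as reference. With TMM factors 68 of 80 group levels moved by less than 1 SD.

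The number of members called moved as follows. In Huh7-IR it was 5, and 3 with a filter at 5 CPM, with only the groups compared or with a pseudocount of 4 CPM, and 3 to 6 with 1 library left out. In Huh7-CR it was 3, and 6 with DMSO as reference or only the groups compared. In Hep3B-IR it was 3, and 5 with the libraries of the line only, only the groups compared or an unadjusted p, and 1 to 3 with 1 library left out (1 without parental replicate 2). In Hep3B-CR it was 5, and 8 with the libraries of the line only or only the groups compared, 3 with the 5 CPM filter or a pseudocount of 4 CPM, and 3 to 5 with 1 library left out. In Huh7-DMSO it was 2, and 1 with the 5 CPM filter, no filter or the libraries of the line only, 0 with only the groups compared, and 1 to 2 with 1 library left out. In Hep3B-DMSO it was 0, and 2 with the libraries of the line only or only the groups compared. Between parental lines it was 2, and 4 with DESeq2, a pseudocount of 0.25 CPM or an unadjusted p, 5 with only the groups compared, and 2 to 4 with 1 library left out. For the line difference it was 4, and 2 with DESeq2, edgeR, the 5 CPM filter or a pseudocount of 4 CPM, and 2 to 6 with 1 library left out. Between Hep3B-IR and Hep3B-CR it was 5, and 3 with the 5 CPM filter or a pseudocount of 4 CPM, and 2 to 3 with 1 library left out.

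Between Huh7-IR and Huh7-CR it was 1, and 2 with the replicate number as a block (ERBB2 at 1.08, adjusted p = 0.0472), with DESeq2 or with an unadjusted p, 0 with the libraries of the line only or only the groups compared, and 0 to 3 with 1 library left out. The replicate block changed no other number of members by over 1.5 times. Deviations of same-numbered libraries correlated at -0.220 to 0.439 over 28 pairs of groups, 13 of them over 0.1, so the numbers were not shown to pair the libraries.

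Numbers over all genes ran from 0 to 3564 for Huh7-DMSO (726 as reported), 46 to 1210 for Hep3B-DMSO (237), 0 to 3148 for Huh7-IR against CR (2051) and 665 to 2697 for Hep3B-IR against CR (1764). The share of called genes that were higher fell from 63.6% to 49.5% with TMM factors in Huh7-IR and from 60.6%, 57.9% and 61.9% to 49.3%, 47.7% and 49.2% after quantile normalization in Huh7-CR and then in both Hep3B lines (IR, CR). It fell from 71.6% to 56.3% in Huh7-DMSO and from 67.5% to 52% in Hep3B-DMSO after quantile normalization, and from 60.3% to 40.2% between Huh7-IR and CR with TMM factors. Depth limits EGF in Hep3B and TGFA in Huh7, which had at most 15 and 9 reads.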
